A study of Mus musculus with 9 samples.

Results

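Solute carriers are membrane proteins that move nutrients, ions, vitamins and metabolites across the plasma membrane and the membranes of organelles, and their genes are named SLC with a family number. The set described here holds 224 of the 374 protein-coding SLC genes of the deposited count table, namely those with a mean raw count of at least 20 over the 9 libraries. The 224 genes fall into 46 families, and the table lists 58735 genes in all. All 224 passed the filter on low counts and were tested. Of the 224, 6 are named SLC but are not transporters, and the counts of carriers below include them. Just below the minimum lay SLC6A12 with a mean count of 19.9 and SLC26A7 with 19.3, and just above it SLC6A16 and SLC37A2 with 22.7 each.

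The RNA came from Caki cells, an established human line from a carcinoma of the kidney. The sample titles do not say which Caki line was used. One group of 3 libraries carried the empty retroviral vector (MX), another wild-type YAP1, and the last YAP1-S127A, a form in which serine 127 is replaced by alanine and which the labels call constitutively active. YAP1 is the transcriptional coactivator at the end of the Hippo pathway. All cells were grown in serum-containing DMEM/F12 medium and selected with G418, so the controls share the vector and the selection. Whether the 3 libraries of a group are separate cultures is not said in the labels, and the tests therefore take only library-to-library spread into account, part of which may be technical. They give no number of clones.

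In the proximal tubule of the kidney, carriers on the luminal side take up glucose, amino acids, phosphate and organic acids, and carriers on the blood side release them. Other carriers are used by nearly every dividing cell, among them the glucose transporters of family SLC2, the large neutral amino acid exchangers of family SLC7, the mitochondrial carriers of family SLC25 and the Golgi nucleotide sugar transporters of family SLC35. Some work only in pairs: the heavy chains SLC3A1 and SLC3A2 bring SLC7 light chains to the cell surface.

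Levels are given as CPM, the depth-scaled read count with TMM factors, or as RPKM, the same value per kilobase of gene length, where genes are compared with each other. Total counts lay between 15789722 and 24811150 per library. YAP1 itself stood at 91.1 to 108 CPM in MX, at 1003 to 1519 with YAP1 and at 631 to 741 with YAP1-S127A. Among kidney epithelial markers, PAX8 was at 228 to 312 CPM in all 9 libraries, whereas PAX2 had 0 counts in all but 1 library. CDH6, EPCAM and LHX1 fell with YAP1-S127A, by 2.21, 1.16 and 0.62 on the log2 scale, and KRT8 rose by 0.65. Of 4 markers of clear cell carcinoma, VIM was at 1855 to 3087 CPM and VEGFA at 40.2 to 69.9, while NDUFA4L2 did not exceed 3.02 and CA9 0.933 CPM. Summed leukocyte markers reached at most 1.68 CPM and endothelial markers 1.78 CPM. The summed level of 5 fibroblast markers was 774 to 1308 CPM in MX, 1327 to 1682 with YAP1 and 2102 to 3818 with YAP1-S127A, nearly all of it COL1A1. Of the 5, COL1A1, LUM, MFAP5 and PDGFRB rose with YAP1-S127A, by 1.60, 3.53, 2.01 and 0.63 on the log2 scale, and DCN did not exceed 1.07 CPM in any library. The mitochondrially encoded share of counts was 1.90 to 6.60% in MX, 3.50 to 11.4% with YAP1, and 29.6, 7.40 and 21.2% in YAP1-S127A replicates 1, 2 and 3. The part of these epithelial and fibroblast markers in the differences below was not tested. In bulk RNA fewer cells of a type and less RNA per cell cannot be told apart. The mitochondrial share was highest in YAP1-S127A replicates 1 and 3, so its part cannot be fully told apart from that of the construct. Calls lost in fits on this share are given below.

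The 224 carriers together took 0.900 to 1.27% of the counts of a library, or 1.23 to 1.37% of the counts outside the mitochondrial genome. Their mean levels ran from 0.0664 RPKM for the bicarbonate transporter SLC4A8 to 244 RPKM for SLC25A5, an ADP/ATP carrier of the inner mitochondrial membrane, with a median of 4.28 RPKM. Next in order came a second ADP/ATP carrier, SLC25A6, at 96.7 RPKM, the lactate exporter SLC16A3 at 89.1, SLC2A4RG at 89.1, the zinc transporter SLC39A7 at 73.0 and the mitochondrial phosphate carrier SLC25A3 at 67.9. SLC2A4RG is a DNA-binding protein that carries a carrier's name only because it was described as a regulator of SLC2A4. Reads of SLC25A5 and SLC25A6 may be shared with each other and with processed pseudogenes, so their separate levels are uncertain. By class, mitochondrial carriers made up 29.0% of the summed RPKM, amino acid transporters 13.4% and zinc transporters 12.3%. All of family SLC35, which includes the nucleotide sugar transporters, made up 11.0%. Each of these shares moved little between libraries, the mitochondrial one from 27.1 to 30.8%.

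Calls were made by the quasi-likelihood test of edgeR where the p-value, adjusted by Benjamini-Hochberg over the 15492 genes tested, was under 0.05. With YAP1, 17 of the 224 carriers (7.59%) differed from MX, against 6.81% of all tested genes. Of these, 8 rose, against a background of 3.23%, and 9 fell, against 3.58%. Among the called carriers, none rose 2-fold or more (background 1.03%) and 4 fell 2-fold or more (background 1.54%). The 3 YAP1 libraries did not overlap the MX libraries for 62 carriers (27.7%), against 24.1% of all tested genes. These shares lay near the background. Leaving out YAP1 replicate 2 or replicate 3 left 9 calls each (background 3.97 and 3.81%).

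With YAP1-S127A, 57 carriers (25.4%) differed from MX, against 18.4% of all tested genes and 20.2% of the protein-coding ones. Of these, 34 rose (15.2%, background 9.53%) and 23 fell (10.3%, background 8.84%). SLC9A3R2, among the 34, is not a transporter (log2 fold change 0.66, adjusted p = 0.0385). At 2-fold or more, 5 rose (background 2.94%) and 11 fell (background 3.29%). The 3 YAP1-S127A libraries did not overlap the 3 MX libraries for 89 carriers (39.7%), against 32.6% of all tested genes. The median log2 fold change of the carriers was 0.11, against 0.00 for all tested genes.

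The count against MX moved with the libraries included, of YAP1-S127A and of MX, and with the scaling. It was 32 (background 9.07%) with the mitochondrial share as a covariate and 30 (background 7.67%) with YAP1-S127A reduced to replicate 2, whose mitochondrial share was the lowest of the group. It was 37 without YAP1-S127A replicate 3 (background 11.7%), 41 without MX replicate 3 (background 13.8%) and 46 without YAP1-S127A replicate 2 (background 14.1%). A fit with fewer libraries can also lose a call whose fold change hardly moved. Scaling by total counts instead of TMM shifted the median of all genes by -0.28 and turned the split into 13 higher and 49 lower. In that fit 28.7% of all tested genes were called. Of the 57 calls, 32 remained without any single library, and 22 of these also remained in both fits on the mitochondrial share, 12 higher and 10 lower. The 10 others, which were lost in at least one of those fits, were SLC6A6, SLC24A1, SLC35E2A, SLC37A4, SLC2A8, SLC12A8, SLC25A24, SLC25A25, SLC26A11 and SLC35A1.

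Between the constructs, 9 carriers (4.02%) differed, against 1.97% of all tested genes. Of the 9, 3 were higher with YAP1-S127A (background 1.13%) and 6 lower (background 0.839%). SLC9A3R2, among the 3, is not a transporter (log2 fold change 0.89, adjusted p = 0.0431). At 2-fold or more, 2 were higher (background 0.549%) and 1 lower (background 0.252%). The libraries of the 2 constructs did not overlap for 53 carriers (23.7%), against 19.6% of all tested genes; 24 of the 53 were lower with YAP1-S127A (background 9.34%). The count fell to 2 without YAP1 replicate 3, and also with YAP1-S127A reduced to replicate 2, where the background was 0.907%. Without YAP1 replicate 3 the background was 0.912%, and SLC38A5 remained called. Of the 9 calls, those of SLC38A5 and SLC4A11 remained without any single library. The other 7, SLC4A4, SLC7A7, SLC9A3R2, SLC23A1, SLC25A45, SLC29A3 and SLC40A1, were each lost at least once when a library was left out. Both constructs were compared with the same 3 MX libraries.

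**Figure D1:**
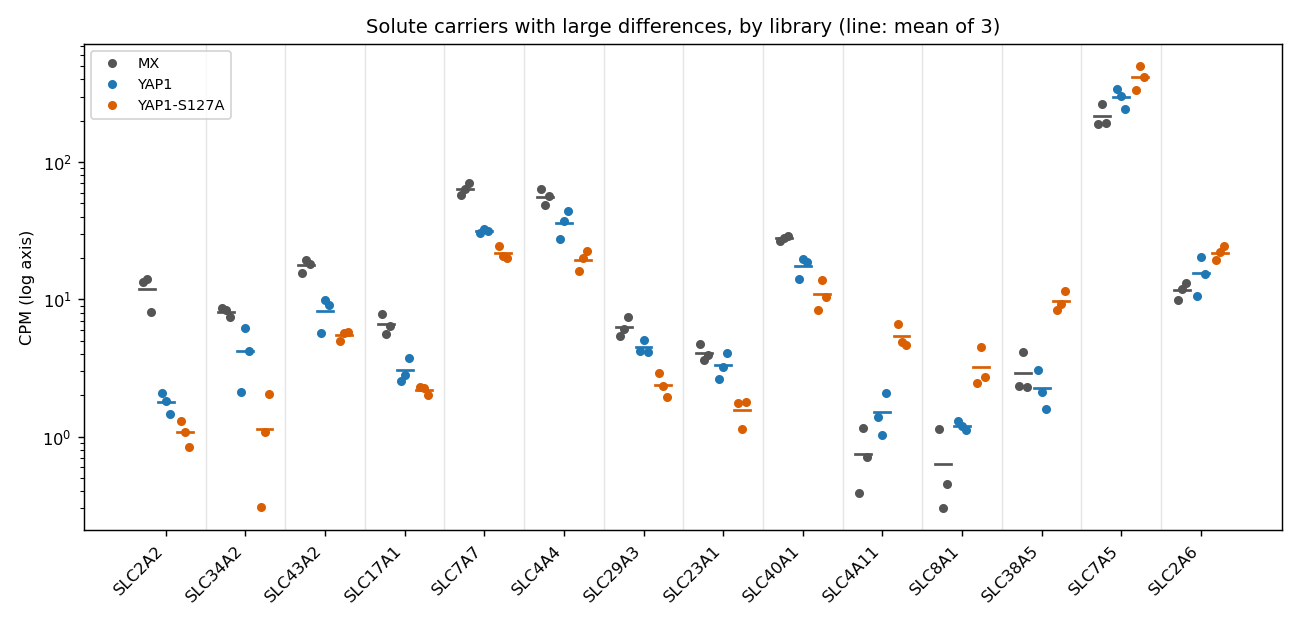
CPM on a log axis of 14 carriers in each of the 9 libraries, with MX in grey, YAP1 in blue and YAP1-S127A in orange; a point is a library and a line the mean of 3. For SLC2A2 the MX points lie at 8.04 to 14.0 CPM and all YAP1 and YAP1-S127A points at or below 2.07 CPM; SLC4A11 runs the other way, with YAP1-S127A at 4.68 to 6.56 CPM above all other libraries.

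Of the 224 members SLC2A2, a carrier of kidney tubules, fell furthest with each construct. A list of 44 tubule carriers had 15 members in the set, and the other 29 were below the count minimum: 4 were at 0 in every library and 13 had a mean under 1 count. Among those nearly or fully unread were the luminal glucose carrier SLC5A1, at 0 counts in all 9 libraries, and the organic anion transporter SLC22A6, with a mean of 0.111 counts. With YAP1, 4 of the 15 fell (26.7%, background 3.58%) and none rose (background 3.23%), while the other 11 did not pass the test. With YAP1-S127A, 7 fell (background 8.84%), 1 rose (background 9.53%) and 7 did not pass, with a median log2 fold change of -0.64 over the 15. The list was drawn up with earlier results of these data known, and SLC4A4 and SLC17A1 were among those results. Both are among the 4 that fell with YAP1 and the 7 that fell with YAP1-S127A. These counts beside the background were therefore partly fixed in advance.

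SLC2A2 encodes GLUT2, the low-affinity glucose carrier on the blood side of proximal tubule cells (chromosome 3, 170996348 to 171026750, minus strand, as the table gives it). It stood at 13.4, 14.0 and 8.04 CPM in MX, at 2.07, 1.81 and 1.46 with YAP1 and at 1.30, 1.08 and 0.841 with YAP1-S127A. No library with a construct reached the lowest MX library. The fall was 2.73 ± 0.25 (SE) on the log2 scale with YAP1, or 6.63-fold (adjusted p = 1.01e-06), and 3.48 ± 0.27 with YAP1-S127A, or 11.1-fold (adjusted p = 3.06e-08). The constructs themselves differed by -0.75 ± 0.31, short of the threshold (adjusted p = 0.321). The YAP1-S127A values rest on 17, 17 and 16 counts.

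SLC7A7, the light chain that exports basic amino acids on the blood side, was at 57.5, 63.6 and 70.3 CPM in MX, 30.2, 32.5 and 31.5 with YAP1 and 24.5, 20.6 and 20.1 with YAP1-S127A. The 3 groups did not overlap. Its log2 fold change was -1.02 ± 0.12 with YAP1 (adjusted p = 1.57e-05) and -1.56 ± 0.12 with YAP1-S127A (adjusted p = 3.27e-08). The step between the constructs, -0.54 ± 0.12 (adjusted p = 0.0255), was lost without any one of the 3 YAP1 libraries, YAP1-S127A replicate 2 or replicate 3 (adjusted p 0.0591 to 0.171). It was -0.62 both with YAP1-S127A reduced to replicate 2 (adjusted p = 0.166) and with the mitochondrial covariate (adjusted p = 0.0697).

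SLC4A4, the sodium bicarbonate cotransporter that returns bicarbonate to the blood, was at 63.6, 48.4 and 56.2 CPM in MX. It was at 27.5, 37.1 and 43.8 with YAP1 and at 16.0, 19.9 and 22.4 with YAP1-S127A, again with no overlap between the groups. It fell by 1.52 ± 0.17 on the log2 scale with YAP1-S127A (adjusted p = 2.24e-06). The smaller difference with YAP1, -0.63 ± 0.16 (adjusted p = 0.0191), did not hold without MX replicate 1, MX replicate 3, YAP1 replicate 1 or YAP1 replicate 2 (adjusted p 0.0569 to 0.104). The step between the constructs, -0.89 ± 0.17 (adjusted p = 0.00553), was lost without YAP1 replicate 3 (-0.73, adjusted p = 0.0532) and with YAP1-S127A reduced to replicate 2 (-0.87, adjusted p = 0.127).

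SLC17A1, a luminal phosphate and urate transporter, was at 7.81, 5.62 and 6.39 CPM in MX, 2.54, 2.83 and 3.73 with YAP1 and 2.29, 2.28 and 2.00 with YAP1-S127A. All 6 construct libraries lay below all MX libraries. The log2 fold changes were -1.12 ± 0.21 (adjusted p = 0.00242) and -1.60 ± 0.23 (adjusted p = 5.16e-05), and the constructs differed by -0.48 ± 0.24 (adjusted p = 0.430). SLC23A1, the vitamin C transporter of the luminal side, fell with YAP1-S127A from 4.71, 3.63 and 3.94 to 1.75, 1.14 and 1.79 CPM (log2 fold change -1.39 ± 0.26, adjusted p = 0.000895). With YAP1 it was at 2.64, 3.23 and 4.04 CPM, overlapping MX. The constructs differed by -1.08 (adjusted p = 0.0437). This call was lost without MX replicate 3, YAP1 replicate 2 or 3, or any YAP1-S127A library (adjusted p 0.0610 to 0.224).

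The remaining tubule carriers differed less. SLC6A19, a luminal carrier of neutral amino acids, and SLC1A1, the glutamate transporter EAAT3, had log2 fold changes of -0.96 and -0.64 with YAP1-S127A (adjusted p = 0.0361 and 0.0270). The urate transporter SLC2A9 was the only one of the 15 called higher, by 0.71 (adjusted p = 0.0265). These 3 were chosen for mention after their values were seen, and each call was lost without MX replicate 2 or YAP1-S127A replicate 1 or 2; SLC6A19 also without MX replicate 3 or YAP1-S127A replicate 3, and SLC1A1 without any MX or YAP1-S127A library. Across all of these, the adjusted p where a call was lost ran from 0.0527 to 0.131. All 3 calls were also lost in both fits on the mitochondrial share. The number of tubule carriers called with YAP1-S127A was 5 without MX replicate 2 (16.9% of all genes called in that fit) and 5 without YAP1-S127A replicate 2 (14.1%). It was 6, all lower, both with the mitochondrial covariate (9.07%) and with YAP1-S127A reduced to replicate 2 (7.67%). The carnitine transporters SLC22A4 and SLC22A5 and the sodium-proton exchanger SLC9A3 were not called in any comparison, with log2 fold changes of 0.39, 0.30 and 0.28 with YAP1-S127A.

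**Figure D2:**
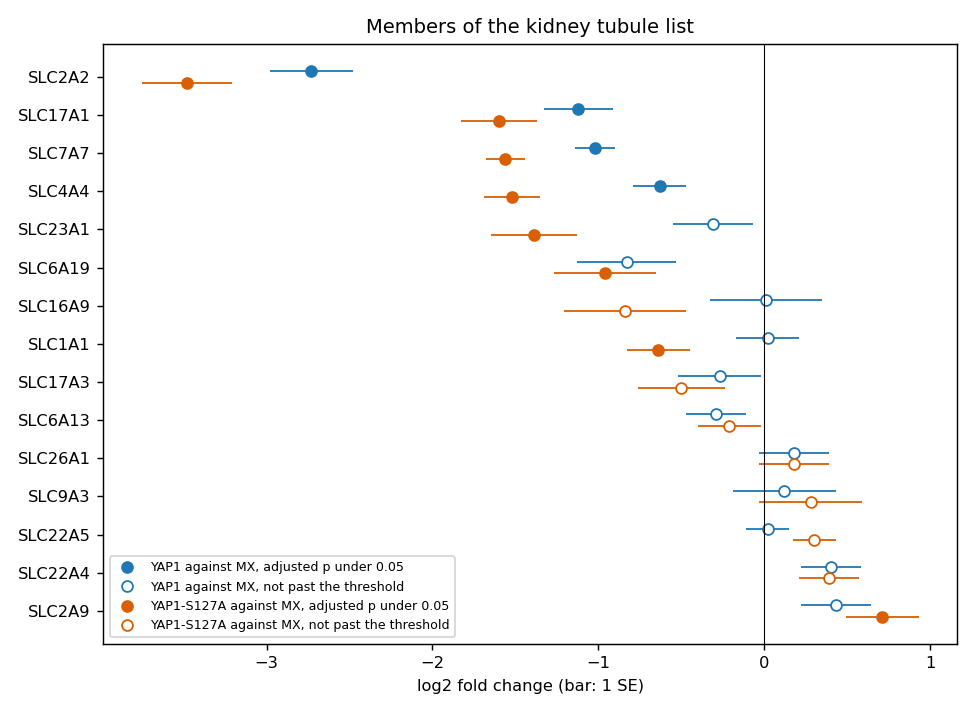
Log2 fold change against MX (horizontal axis, bars 1 SE) of the 15 members of the kidney tubule list, with YAP1 in blue and YAP1-S127A in orange; filled points have an adjusted p under 0.05. SLC2A2 stands apart at -2.73 and -3.48, and SLC2A9 is the one filled point to the right of 0.

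No glucose carrier other than SLC2A2 was called lower with YAP1-S127A. The class of hexose and polyol transporters had 15 members, of which 5 rose (background 9.53%) and 1, SLC2A2, fell (background 8.84%) with YAP1-S127A. Of the 5 rises, those of SLC2A8, SLC2A9 and SLC5A3 were lost with total counts and with the mitochondrial covariate, while SLC2A6 and SLC2A10 remained called. The calls of SLC2A9 and SLC5A3 were also lost without single libraries. SLC2A8 and SLC5A3 were chosen for mention after their values were seen. SLC2A6, a lysosomal member of the family, rose from 9.84, 11.8 and 13.2 CPM in MX to 19.3, 22.1 and 24.4 (log2 fold change 0.92 ± 0.19, adjusted p = 0.00219). YAP1 libraries, at 10.5, 20.5 and 15.3 CPM, overlapped both. SLC2A10, another intracellular member, rose from 9.98, 11.3 and 11.0 to 17.2, 20.6 and 22.2 CPM (0.89 ± 0.16, adjusted p = 0.000463). SLC2A1, the main glucose carrier of many cultured cells, was at 112 to 167 CPM in MX and 94.5 to 139 with YAP1-S127A, with a log2 fold change of -0.29 ± 0.16 (adjusted p = 0.255), and was chosen for mention after its values were seen. Downstream of glucose uptake, SLC37A4, which moves glucose 6-phosphate into the endoplasmic reticulum for glucose release, fell by 0.53 ± 0.12 with YAP1 (adjusted p = 0.00881, lost without YAP1 replicate 2 at 0.0579) and by 0.58 ± 0.12 with YAP1-S127A (adjusted p = 0.00184). The lactate exporter SLC16A3 ranged from 536 to 940 CPM in MX and from 661 to 924 with YAP1-S127A, with no call in any comparison.

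Of 26 amino acid transporters, 4 rose and 7 fell with YAP1-S127A, against 9.53% and 8.84% of all tested genes. Of the 7, SLC7A7 and SLC43A2 remained called with the mitochondrial covariate. SLC1A1, SLC6A6, SLC6A19, SLC38A1 and SLC43A3 did not, and all of these but SLC6A6 were also lost without single libraries. Of the 4, SLC36A1 was lost with that covariate, and SLC36A1 and SLC1A3 without single libraries. SLC36A1, SLC38A1 and SLC43A3 were chosen for mention after their values were seen. With YAP1, 2 fell (background 3.58%). The heavy chain SLC3A2 was at 45.1 ± 9.22 RPKM in MX (SD, n = 3), 46.4 ± 3.84 with YAP1 and 54.6 ± 9.53 with YAP1-S127A, and was not called. Its light chains parted. SLC7A5 (LAT1), the exchanger that brings in leucine and other large neutral amino acids, stood at 45.4 ± 9.14, 62.4 ± 10.2 and 88.0 ± 17.6 RPKM. SLC7A7 stood at 12.4 ± 1.24, 6.12 ± 0.226 and 4.23 ± 0.468 RPKM.

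Between MX and YAP1-S127A, SLC7A5 rose by 0.96 ± 0.17 on the log2 scale (adjusted p = 0.000425), from 189, 266 and 191 to 334, 500 and 419 CPM without overlap. With YAP1 it was at 341, 301 and 245 CPM, where the lowest library lay within the MX range (0.46 ± 0.16, adjusted p = 0.111). Of the other light chains, SLC7A6 had a log2 fold change of 0.33 and the cystine importer SLC7A11 of 0.24 with YAP1-S127A, both short of the threshold (adjusted p = 0.102 and 0.421). The light chains SLC7A8, SLC7A9 and SLC7A10 and the heavy chain SLC3A1 had mean counts of 5.11, 0.778, 0 and 2.56 and were below the minimum.

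**Figure D3:**
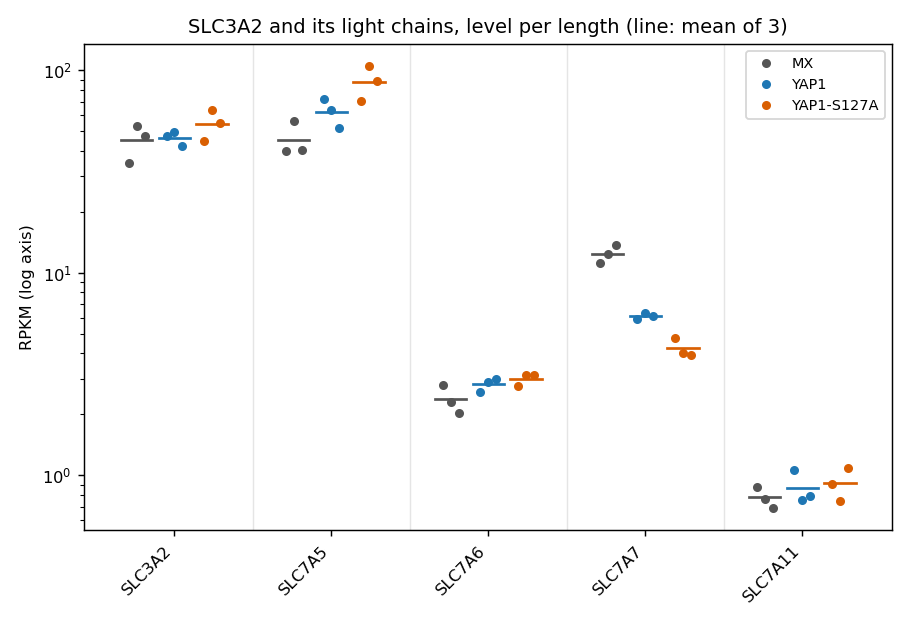
RPKM on a log axis of the heavy chain SLC3A2 and of the 4 SLC7 light chains above the count minimum, in each of the 9 libraries; a line is the mean of 3. SLC7A5 runs from 45.4 to 88.0 RPKM and SLC7A7 from 12.4 down to 4.23 RPKM between the MX and YAP1-S127A means, while SLC3A2 stays between 45.1 and 54.6 RPKM.

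SLC43A2, which carries leucine and its kin without sodium (LAT4), fell with both constructs. It was at 15.5, 19.4 and 18.1 CPM in MX, 5.70, 9.92 and 9.09 with YAP1 and 4.96, 5.65 and 5.78 with YAP1-S127A. Both construct groups lay below MX without overlap, by 1.10 ± 0.18 (adjusted p = 0.000585) and 1.68 ± 0.19 (adjusted p = 3.24e-06) on the log2 scale.

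The glutamine transporter SLC38A5 was called with YAP1-S127A only, and the test between the constructs was passed as well. It was at 2.35, 4.11 and 2.29 CPM in MX, 3.06, 2.10 and 1.60 with YAP1 and 8.31, 9.20 and 11.6 with YAP1-S127A. The YAP1-S127A libraries lay above the other 6, by 1.77 ± 0.26 against MX (adjusted p = 6.28e-05) and by 2.12 ± 0.27 against YAP1 (adjusted p = 0.000249). Each of these calls remained without any single library. The taurine transporter SLC6A6, chosen for mention after its values were seen, fell with YAP1-S127A by 0.64 ± 0.12 (adjusted p = 0.000864), and this call was lost with YAP1-S127A reduced to replicate 2 (-0.55, adjusted p = 0.0847) and with the mitochondrial covariate (-0.50, adjusted p = 0.0895).

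Among 11 bicarbonate and anion exchangers, 2 rose (background 9.53%) and 1, SLC4A4, fell (background 8.84%) with YAP1-S127A. SLC4A11, a relative of SLC4A4 best known from the corneal endothelium and not a bicarbonate carrier, moved opposite to it. Its libraries were at 0.392, 1.15 and 0.714 CPM in MX, 1.40, 1.02 and 2.09 with YAP1 and 6.56, 4.88 and 4.68 with YAP1-S127A. The rise was 2.90 ± 0.35 on the log2 scale against MX (7.45-fold, adjusted p = 7.76e-06). The MX values rest on 11 to 19 counts per library. Against YAP1 it was 1.81 ± 0.32 (adjusted p = 0.00410), a call that was lost with YAP1-S127A reduced to replicate 2 (1.67, adjusted p = 0.117).

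Of the 4 members of family SLC26, which carry sulfate, chloride and other anions, 1 rose with YAP1 (background 3.23%) and 1 with YAP1-S127A (background 9.53%). SLC26A2, which supplies sulfate for proteoglycans, rose with YAP1 from 67.2, 52.2 and 59.1 to 94.9, 86.9 and 87.2 CPM (0.59 ± 0.12, adjusted p = 0.00446), and with YAP1-S127A it was at 67.6, 75.0 and 84.6 CPM (0.35 ± 0.12, adjusted p = 0.0545). SLC26A11 rose with YAP1-S127A from 20.9, 27.6 and 24.4 to 39.4, 38.8 and 39.7 CPM (0.70 ± 0.14, adjusted p = 0.00126). The latter call was lost with YAP1-S127A reduced to replicate 2 (0.67, adjusted p = 0.0537) and with the mitochondrial covariate (0.58, adjusted p = 0.0701).

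Of 7 cation-chloride cotransporters, which set cell volume and chloride, 2 rose (background 9.53%) and none fell (background 8.84%) with YAP1-S127A. SLC12A4 (KCC1) rose from 66.8, 93.7 and 78.8 to 119, 136 and 145 CPM (0.75 ± 0.14, adjusted p = 0.000623) and SLC12A8 by 0.74 ± 0.15 (adjusted p = 0.00146). None of the 8 sodium-proton exchangers was called in any comparison (background 18.4% for YAP1-S127A against MX). SLC8A1, the sodium-calcium exchanger that extrudes calcium, rose by 2.27 ± 0.40 (adjusted p = 0.000403), from 1.14, 0.302 and 0.451 to 2.44, 4.50 and 2.73 CPM. These are low levels, with 5 to 32 counts per MX library. SLC24A1, an exchanger that also carries potassium, fell by 0.65 ± 0.16 (adjusted p = 0.00675).

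Of 7 members of the class of phosphate and SLC17 transporters, 1 rose and 2 fell with YAP1-S127A (background 9.53 and 8.84%), and 2 rose and 1 fell with YAP1 (3.23 and 3.58%). SLC34A2, a sodium phosphate cotransporter of epithelia, was at 8.63, 8.40 and 7.40 CPM in MX, 2.12, 6.23 and 4.21 with YAP1 and 0.305, 1.08 and 2.05 with YAP1-S127A. The groups did not overlap, and the spread within the construct groups was wide. The log2 fold change was -2.74 ± 0.45 with YAP1-S127A (6.68-fold, adjusted p = 0.000864) and -0.96 ± 0.38 with YAP1 (adjusted p = 0.172). SLC20A1, the housekeeping phosphate importer PiT1, rose with YAP1 from 135, 124 and 131 to 182, 179 and 175 CPM (0.46 ± 0.11, adjusted p = 0.0102), a call lost with total-count scaling (0.39, adjusted p = 0.159). With YAP1-S127A it was at 143, 144 and 158 CPM, above all MX libraries and below all YAP1 libraries, without passing the test against either (adjusted p = 0.233 and 0.275).

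Of 7 carriers of iron, copper, manganese, magnesium and heme, 1 rose (background 9.53%) and 1 fell (background 8.84%) with YAP1-S127A. The iron exporter ferroportin, SLC40A1, was at 26.8, 28.0 and 28.9 CPM in MX, 14.0, 19.8 and 18.6 with YAP1 and 8.39, 13.9 and 10.4 with YAP1-S127A, without overlap. It fell by 1.35 ± 0.17 with YAP1-S127A (adjusted p = 1.17e-05). With YAP1 the difference was -0.67 ± 0.16 (adjusted p = 0.0142), lost without MX replicate 3 or YAP1 replicate 1 (adjusted p 0.0542 to 0.0859). The copper importer SLC31A1 rose with YAP1-S127A from 36.7, 33.1 and 31.0 to 48.5, 56.3 and 50.5 CPM (0.62 ± 0.11, adjusted p = 0.000582). With total-count scaling this rise was 0.35 (adjusted p = 0.0860). Of 17 zinc transporters, 3 rose (background 9.53%) and none fell (background 8.84%) with YAP1-S127A. The 3 were SLC39A10, SLC39A13 and SLC30A4, with log2 fold changes of 0.49, 0.58 and 0.77. Each of these 3 calls was lost when a single library was left out: YAP1-S127A replicate 3 or MX replicate 3 for SLC39A10 and SLC39A13, replicate 2 of YAP1-S127A as well for SLC39A13, and YAP1-S127A replicate 1 for SLC30A4 (adjusted p 0.0530 to 0.113). All 3 calls were also lost with total counts and in both fits on the mitochondrial share.

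Of 5 nucleoside transporters, 2 fell (background 8.84%) and 1 rose (background 9.53%) with YAP1-S127A. SLC29A3, which works in lysosomes, went from 5.45, 6.11 and 7.44 CPM in MX to 2.90, 2.35 and 1.94 (-1.42 ± 0.22, adjusted p = 0.000146). SLC29A4, a carrier of monoamines and adenosine, went from 11.1, 14.4 and 10.2 to 4.12, 5.39 and 3.89 CPM (-1.41 ± 0.21, adjusted p = 8.56e-05). It was at 7.82, 6.63 and 4.75 CPM with YAP1 (-0.89 ± 0.20, adjusted p = 0.00857, lost without YAP1 replicate 3 at 0.0752). The concentrative nucleoside transporter SLC28A3 rose from 0.749, 0.967 and 0.789 to 1.45, 2.85 and 2.31 CPM (1.42 ± 0.33, adjusted p = 0.00482). The most abundant of the class, the equilibrative SLC29A1, was at 84.9 to 99.0 CPM in MX and 87.3 to 107 with YAP1-S127A (0.01 ± 0.12).

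Among 10 vitamin transporters, 2 rose (background 9.53%) and 2 fell (background 8.84%) with YAP1-S127A. The thiamine transporter SLC19A2 rose from 16.6, 15.5 and 17.2 CPM to 25.2, 28.1 and 37.0 (0.87 ± 0.17, adjusted p = 0.000851). Its call with YAP1 (0.62 ± 0.16, adjusted p = 0.0261) did not hold when replicate 2 or 3 of MX or of YAP1 was left out (adjusted p 0.0649 to 0.171).

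Of the 62 members of families SLC25 and SLC35, which lie mainly in mitochondria and the Golgi, 9 (14.5%) were called with YAP1-S127A, near the 18.4% of all tested genes. Of the 162 other members 48 (29.6%) were called, and the difference between these shares was not tested. Of 38 mitochondrial carriers, 4 rose (background 9.53%) and 1 fell (background 8.84%). SLC25A25, a calcium-regulated ATP-magnesium/phosphate carrier, rose from 4.85, 6.35 and 6.54 CPM to 13.9, 11.1 and 11.9 (1.06 ± 0.21, adjusted p = 0.00107), and its relative SLC25A24 by 0.55 ± 0.12 (adjusted p = 0.00386). Without YAP1 replicate 3 the call of SLC25A25 with YAP1 (0.85 ± 0.20, adjusted p = 0.0134) was lost (adjusted p = 0.152). SLC25A46, a protein of the outer mitochondrial membrane, rose from 44.4, 42.4 and 45.4 to 63.6, 69.6 and 78.5 CPM (0.68 ± 0.12, adjusted p = 0.000360). The ADP/ATP carrier SLC25A5 was at 318 to 389 CPM in MX and 358 to 398 with YAP1-S127A (0.06 ± 0.12, adjusted p = 0.767).

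Of 24 members of family SLC35, 3 rose and 1 fell with YAP1-S127A, against 9.53% and 8.84% of all tested genes. SLC35A1, which brings CMP-sialic acid into the Golgi, rose from 4.31, 5.62 and 4.55 to 7.70, 8.50 and 7.93 CPM (0.75 ± 0.18, adjusted p = 0.00678), and SLC35F3 by 0.58 ± 0.14 (adjusted p = 0.00562). SLC35E2A fell by 0.71 ± 0.17 (adjusted p = 0.00504), but its reads may be shared with the near-identical SLC35E2B, so the value is uncertain. With total-count scaling SLC35A1 and SLC35F3 had log2 fold changes of 0.48 and 0.32 (adjusted p = 0.0936 and 0.151).

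**Figure D4:**
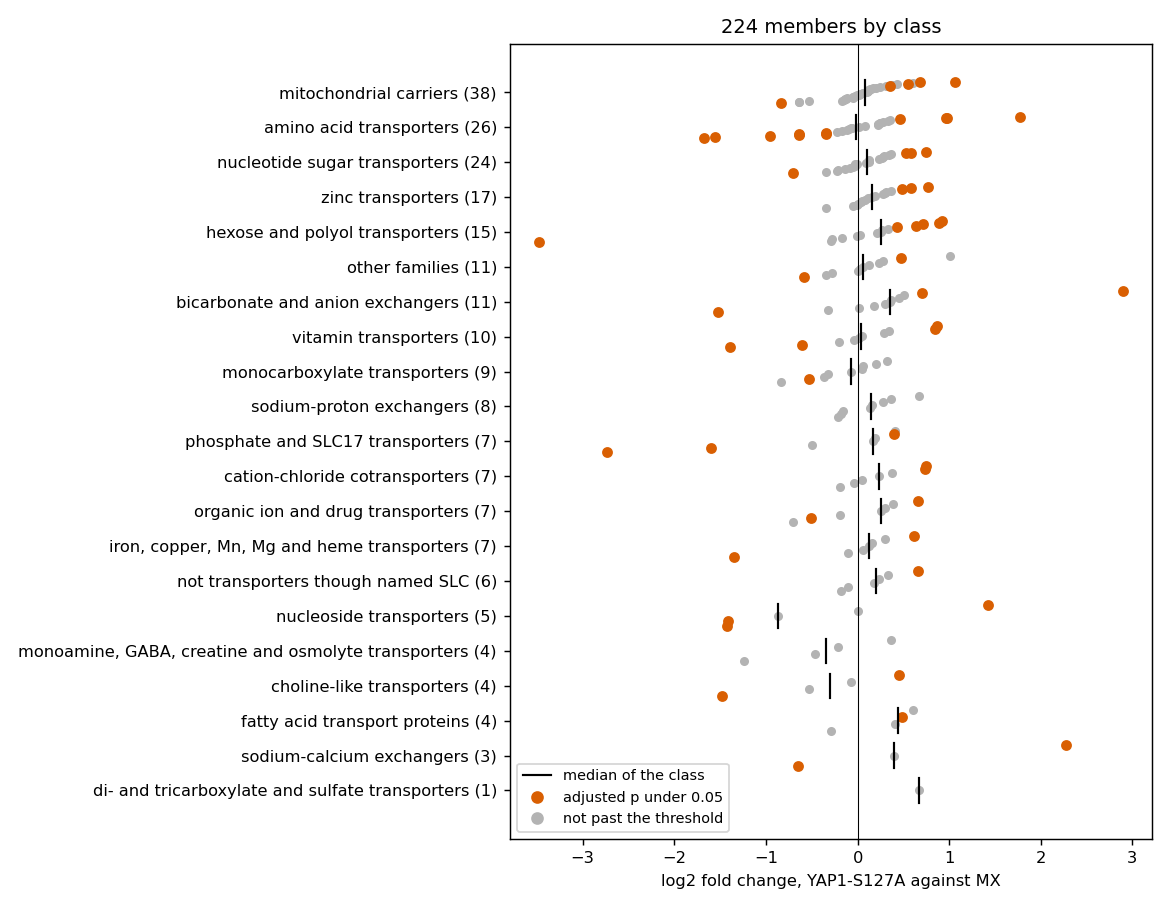
Log2 fold change of YAP1-S127A against MX for each of the 224 carriers, by class, with the number of members in brackets; orange points have an adjusted p under 0.05 and the black bar is the median of the class. The class medians of mitochondrial carriers and amino acid transporters are 0.08 and -0.02, and the largest differences are single members such as SLC2A2 at -3.48 and SLC4A11 at 2.90.

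Large differences sat among the less abundant carriers. Of the 54 members at 10 RPKM or more, 8 were called with YAP1-S127A (background 18.4%) and none of these reached 2-fold; SLC7A5 came closest, at 1.94-fold. Of the 125 between 1 and 10 RPKM, 8 were called at 2-fold or more, and of the 45 under 1 RPKM also 8. Over all tested genes, 2.94% were called 2-fold or more higher and 3.29% lower. Whether all genes show the same order by level was not tested. The median absolute log2 fold change was 0.22, 0.26 and 0.61 in these bins in the same order. Lower counts also widen the error of a fold change, and the part of that in this order was not tested. The count minimum was applied to the mean over all 9 libraries. A carrier with few counts in a group could therefore enter the set through another group where it was high. The order by level is thus partly set by the choice of members, and how far was not tested.

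**Figure D5:**
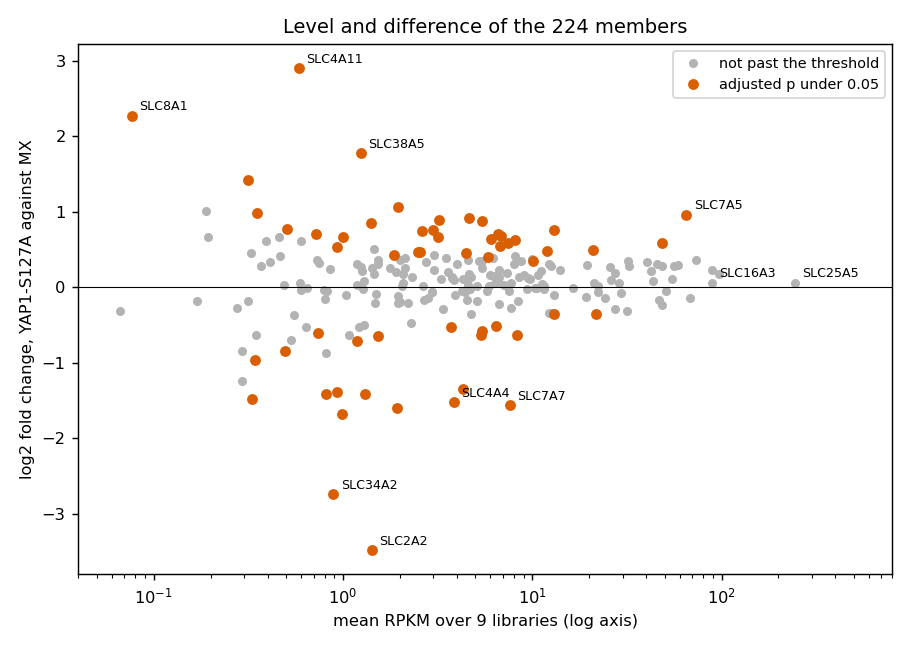
Log2 fold change of YAP1-S127A against MX (vertical axis) against the mean RPKM over the 9 libraries (log axis) for the 224 carriers; orange points have an adjusted p under 0.05. SLC2A2 and SLC34A2 lie lowest and SLC4A11 highest, all below 10 RPKM, while the most abundant carrier, SLC25A5 at 244 RPKM, lies at 0.06.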

How the data were processed

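The authors deposited raw counts of reads for each gene, unscaled whole numbers, beside a gene length in bases; no column outside the 9 samples was present (0). Per the submitters' processing notes HISAT2, Cufflinks, Salmon 1.9.0 and the mouse build GRCm39 were used, with no role given, and the labels name mouse as the organism. The table holds human Ensembl identifiers; the human build, annotation and strand setting behind it were not given in the sources used here, so reads of overlapping genes and close copies may be shared. Coordinates are the table's own.

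Counts were filtered with filterByExpr, which kept 15492 genes, scaled by TMM and fitted together in edgeR 4.0.16 (R 4.3.3) on group alone with robust quasi-likelihood F tests, two-sided, adjusted by Benjamini-Hochberg over all tested genes and called under 0.05. SEs were obtained from the size of the log2 fold change and the root of its F statistic. RPKM divides CPM by the deposited length. Non-overlap compares the 3 values of each group. DESeq2 1.42.0 and limma 3.58.1 served as alternatives, and the fit was tested on simulated data. The mitochondrial covariate and the reduction of YAP1-S127A to replicate 2 were added after seeing the data.

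Members, classes and lists were chosen with earlier results of these data known; the tubule and partner lists come from textbook knowledge. SLC7A6OS and SLC22A18AS were moved to the class of genes that are not transporters after the table was seen. Genes were named by a rule: SLC4A4, SLC17A1 and YAP1; up to 12 called carriers with the largest rises and 12 with the largest falls against MX (8 and 8 between constructs) at a mean log2 CPM of at least 1 without overlap; up to 3 called members with the smallest p of each list and comparison; the most abundant member of each class; and SLC3A1, SLC3A2 and SLC7A5 to SLC7A11. Human reference sequences were not used here, and none is printed.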

Additional observations from a re-analysis of the deposited data

How the results depend on the processing

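The alternatives were RLE scaling, total counts, no filter on low counts, a mean log2 CPM of at least 1, protein-coding genes only, mitochondrially encoded genes left out, DESeq2, limma-voom, the 2 groups alone, a mean count of at least 100, a replicate block and leaving out each library. No gene named changed direction while called. For YAP1 against MX, 17 carriers were called, 27 with no filter on low counts, and 9 to 21 without single libraries. The shares of all tested genes called were 6.81%, 4.01% and 3.81 to 9.06% in the same order. For YAP1-S127A against MX, 57 were called, 32 with the mitochondrial share as a covariate, 30 with YAP1-S127A reduced to replicate 2 (27 of the 57 among them), and 37 to 61 without single libraries. For YAP1-S127A against YAP1, 9 were called, 19 with total counts, 14 with no filter, 5 with limma-voom, 4 at a mean count of at least 100, 2 with YAP1-S127A reduced to replicate 2, and 2 to 14 without single libraries: 14 without MX replicate 1, 4 without MX replicate 3, 3 without YAP1 replicate 2, 2 without YAP1 replicate 3, 5 without YAP1-S127A replicate 2 and 4 without YAP1-S127A replicate 3. Without single libraries, 11.7 to 19.6% of all tested genes were called for YAP1-S127A against MX (18.4% as reported). Between the constructs it was 0.798 to 2.96% (1.97% as reported), 1.63% with no filter and 1.77% with limma-voom. The count at a mean of at least 100 covers fewer genes and the reduced fits fewer samples; otherwise the cause was not tested. In the fit with only replicate 2 of YAP1-S127A, that library is assumed to vary like the other groups. Total counts moved the median of all genes by -0.08, -0.28 and -0.20 in the 3 comparisons. The split of calls then became 4 higher and 11 lower for YAP1 against MX, 13 and 49 for YAP1-S127A against MX, and 3 and 16 between the constructs. With total counts, 6.39, 28.7 and 3.98% of all tested genes were called in these comparisons.

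The replicate numbers were not shown to pair the libraries: deviations of same-numbered libraries correlated between -0.18 and 0.20, and 3 of 9 libraries matched their own number best. With a replicate block, 25, 73 and 12 carriers were called in the 3 comparisons, against 9.22, 22.1 and 3.05% of all tested genes. Depth limits the carriers with few counts, such as SLC4A11, SLC8A1 and SLC2A2 with YAP1-S127A.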

Other observations

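Beside the carriers, a list of 35 genes without an SLC family number in their symbol was read, of which 31 were tested. It holds transporters under other names and also partners that are not transporters, such as BSG and the carbonic anhydrases CA2 and CA12. CA2 and CA12 were both called lower with YAP1-S127A and are counted here. With YAP1, 2 rose (background over all tested genes 3.23%) and 5 fell (background 3.58%), and with YAP1-S127A 6 rose (background 9.53%) and 10 fell (background 8.84%), by the same edgeR test. SLCO4C1, an organic anion transporter of the kidney, was at 26.8, 19.3 and 22.5 CPM in MX, 3.26, 5.72 and 5.46 with YAP1 and 1.98, 2.16 and 3.68 with YAP1-S127A. It fell by 2.25 and 3.10 on the log2 scale (adjusted p = 2.18e-06 and 3.06e-08), with no overlap between MX and either construct. Its relative SLCO4A1, a thyroid hormone transporter, rose from 9.98, 16.0 and 12.2 CPM to 24.8, 26.8 and 23.7 with YAP1 and to 24.0, 29.4 and 30.1 with YAP1-S127A (0.99 and 1.14, adjusted p = 0.000423 and 3.65e-05). UCP2, a mitochondrial carrier of the SLC25 fold named for uncoupling, fell from 50.7, 57.4 and 49.6 CPM to 25.1, 23.2 and 18.5 with YAP1 and to 16.4, 17.7 and 15.3 with YAP1-S127A. Its log2 fold changes were -1.24 and -1.68 (adjusted p = 4.81e-06 and 4.02e-08). The calls of these 3 genes against MX remained under each alternative run and without any single library.

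Some carriers below the count minimum differed in raw counts; they are given as counts only and were chosen after their values were seen. SLC51B, the beta subunit of the bile acid exporter, had 46, 48 and 37 counts in MX, 7, 10 and 11 with YAP1 and 2, 2 and 3 with YAP1-S127A. SLC6A12, the betaine transporter, had 51, 26 and 45 counts in MX, 5, 7 and 10 with YAP1 and 8, 15 and 12 with YAP1-S127A.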
